A study of Mus musculus with 4 samples.

Results

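The keratins of the mammary epithelium were read in all 4 RNA-seq libraries of sorted mouse mammary tumor cells. The set holds 10 genes of the 24043 rows of the deposited expression table, chosen by symbol. Of these, 6 are keratins of luminal (inner layer) cells (Krt8, Krt18, Krt19, Krt7, Krt23 and Krt80) and 4 are keratins of basal (outer layer) cells (Krt5, Krt14, Krt17 and Krt15). The tumors arose in MMTV-PyMT female mice, in which a mammary promoter drives the polyoma middle T oncogene. Every mouse also carried a Rosa26-Stop-YFP reporter, and every library came from YFP+ cells sorted 2 to 3 months after Ad-K8-Cre, an adenovirus with Cre under the Krt8 promoter, was injected into the ducts. Control mice were Lsd1+/+ and gave 2 wild-type libraries. Experimental mice carried the conditional Lsd1L/L alleles, which Cre deletes, and gave 2 libraries titled knockout. YFP is thus meant to mark cells in which the Krt8 promoter was active when the virus was given, and their descendants, in both genotypes. The sources used here do not give mouse age or the number of animals per library, so p-values measure the spread between these libraries, which may be technical. Below, the WT pair is the first and second wild-type library, in that order, and the KO-labelled pair the 2 libraries titled knockout.

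Keratins are the intermediate filament proteins of epithelial cells. A filament is built from pairs of 1 type I (acidic) and 1 type II (basic) keratin, and the members of a pair are usually expressed together. In the mammary gland Krt8 and Krt18 form the filaments of luminal cells, with Krt19 and Krt7 beside them, while Krt5 and Krt14 form those of basal and myoepithelial cells. The ratio of luminal to basal keratins is therefore a common readout of lineage in mammary tumors.

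The stretches of DNA before the start sites of Krt8 and Krt18 are shown because these partner genes lie next to each other and had nearly equal levels in each library, and that of Krt5 because it is the basal type II keratin. Sequences are from RefSeq (build GRCm38.p6) and run from 250 bases before the annotated start to 10 bases after it. Of the 10 keratins 6 matched a window in that table, and for 5 of them its start site was the edge of the RefSeq gene. Krt19, Krt80, Krt17 and Krt15 had no entry. Capitals mark matches to any of 4 motifs, searched on both strands over 300 bases: the TATA box (TATAAA), the GC box (GGGCGG), an AP-2 site (GCCNNNGGC) and an AP-1 site (TGANTCA).
Krt8, chr15:102004333-102004592, minus strand: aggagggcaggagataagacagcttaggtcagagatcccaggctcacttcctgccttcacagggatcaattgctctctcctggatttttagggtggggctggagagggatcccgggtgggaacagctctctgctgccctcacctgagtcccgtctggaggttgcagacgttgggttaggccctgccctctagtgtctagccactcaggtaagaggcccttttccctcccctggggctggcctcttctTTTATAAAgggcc
Krt18, chr15:102027966-102028225, plus strand: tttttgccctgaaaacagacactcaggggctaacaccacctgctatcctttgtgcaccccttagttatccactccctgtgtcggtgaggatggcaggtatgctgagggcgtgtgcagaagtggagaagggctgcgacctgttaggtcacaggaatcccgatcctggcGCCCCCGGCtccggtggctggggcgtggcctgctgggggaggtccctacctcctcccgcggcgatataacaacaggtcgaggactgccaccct
Krt5, chr15:101712896-101713155, minus strand: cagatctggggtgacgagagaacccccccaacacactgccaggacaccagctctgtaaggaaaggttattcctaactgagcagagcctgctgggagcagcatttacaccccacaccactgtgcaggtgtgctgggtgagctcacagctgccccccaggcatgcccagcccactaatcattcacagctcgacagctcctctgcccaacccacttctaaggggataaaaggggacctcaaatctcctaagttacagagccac
In the Krt8 window the TATA box matched on both strands in overlapping letters at the annotated start, and 13.6% of all 32851 promoter windows held that motif. Krt18 held 1 AP-2 match, 83 bases before its start, a motif found in 16.6% of windows. The Krt7 window, not printed, held 4 GC box and 2 AP-2 matches, 1 of each overlapping, and GC boxes occurred in 35.7% of windows. Krt5 and Krt23 held none of the 4 motifs, AP-1 (7.81% of windows) included. A match is a description of the letters, not a measured binding site.

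Facts of the whole series set the limits of every value below. Values are FPKM, reads scaled by transcript length and library total. The libraries differed in depth by a factor of 0.85 to 1.03 relative to the second KO-labelled library, read from the steps of the lowest values; the sources used here give no read totals. Across tested genes the wild-type pair had a Pearson correlation of 0.85 and the pair labelled knockout one of 0.98 on the log2(FPKM + 1) scale; no row had the same nonzero value in both libraries of that second pair. Kdm1a, the gene that encodes LSD1, was at 52.5 and 22.9 FPKM in the WT pair and 20.2 and 22.8 FPKM in the KO-labelled pair (difference -0.67, SE 0.46; limma, adjusted p = 0.34), so the targeted gene separated the groups only through the first wild-type library. The calls named below ended (limma) with no filter on low values. Without either KO-labelled library no tested gene passed, while 1154 and 1128 did at an unadjusted p under 0.05; genes under 1 FPKM in both wild-type libraries failed the filter there and were not tested. The samples titled knockout carry a tissue label that reads Lsd1+/+ as well, and they are therefore only called KO-labelled.

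All 10 keratins had their highest level in the first wild-type library. The luminal keratins were ordered first wild-type, second wild-type, then both KO-labelled libraries, except Krt80. Of the basal keratins, Krt5 in the KO-labelled pair was close to the second wild-type library, and Krt17 lay on both sides of it. Relative to that library Krt14 was lower in the KO-labelled pair and Krt15 was higher. None of the 10 passed an adjusted p of 0.05 (limma on log2(FPKM + 1), Benjamini-Hochberg over 11138 tested genes), where 16.5% of all tested genes passed, 6.99% as lower and 9.51% as higher. At an unadjusted p under 0.05 there were 5, all luminal, versus 39.5% of all tested genes. Both KO-labelled libraries lay below both wild-type libraries for 6 of the 10, versus 32.1% of tested genes, and above both for 0, versus 39.3%.

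**Figure D1:**
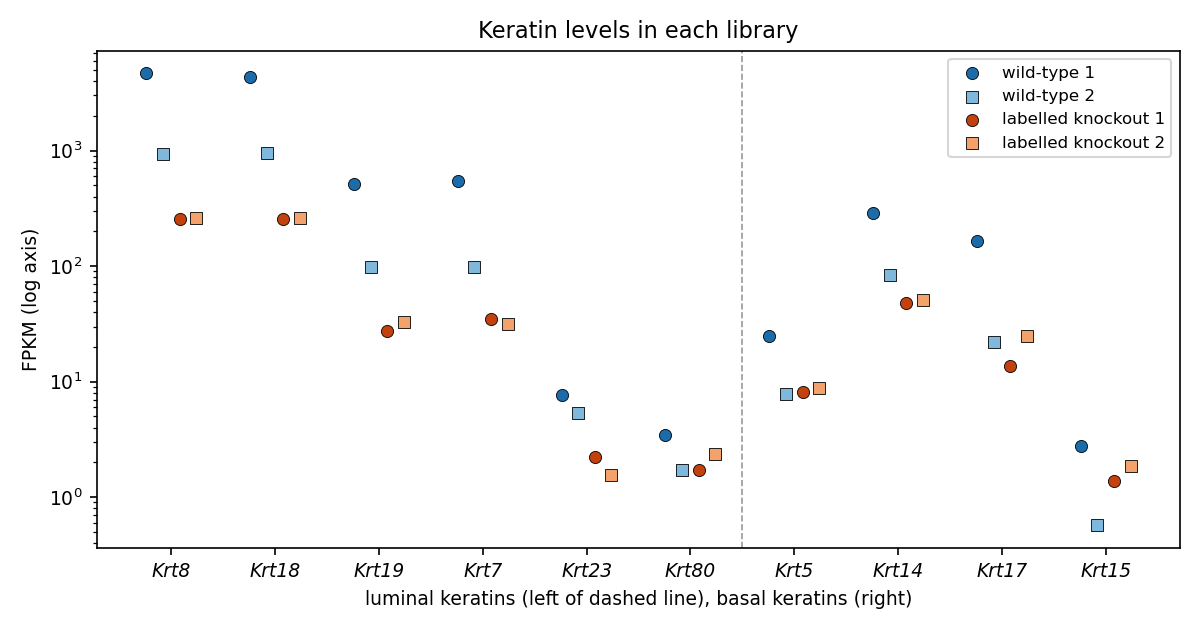
FPKM of each of the 10 keratins on a log axis, 1 point per library, wild-type in blue and labelled knockout in orange. Krt8 and Krt18 lie at 4653 and 4312 FPKM in the top wild-type library and between 254 and 261 FPKM in the KO-labelled pair, while Krt5 and Krt17 overlap between the groups.

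Krt8, the type II keratin of luminal cells, was at 4653 and 929 FPKM in the WT pair and at 255 and 259 FPKM in the KO-labelled pair. It ranked as row 6 of the table by FPKM in the first wild-type library, 58 in the second, and 244 and 243 in the KO-labelled pair. The groups did not overlap, and the wild-type libraries stood farther apart than the second of them stood from the KO-labelled pair (2.32 versus 1.85 in log2(FPKM + 1)). The difference, labelled knockout minus wild-type, was -3.01 (SE 0.84, 95% interval -5.38 to -0.65, n = 2 and 2; limma, adjusted p = 0.084). Leaving out the first wild-type library gave -1.85 and leaving out the second gave -4.17, and in those fits no spread between wild-type libraries was left.

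Krt18, the type I partner of Krt8, was at 4312 and 949 FPKM in the WT pair and 254 and 261 FPKM in the KO-labelled pair. These levels followed those of Krt8 library by library: the Krt8 to Krt18 ratio of FPKM was 1.08 and 0.979 in the WT pair and 1.003 and 0.995 in the KO-labelled pair. The pair thus kept nearly 1 to 1 levels, on a scale per transcript length. The Krt18 difference was -2.97 (SE 0.79; limma, adjusted p = 0.078).

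Krt19, a type I keratin of luminal cells and ducts, was at 517 and 97.6 FPKM in the WT pair and 27.5 and 33.1 FPKM in the KO-labelled pair. Krt7, the type II keratin of simple ductal epithelium, was at 542 and 97.3 FPKM versus 34.9 and 31.8 FPKM. For both genes the groups did not overlap and the first wild-type library stood far above the second. Their differences were -2.86 (SE 0.88; limma, adjusted p = 0.098) and -2.75 (SE 0.90; adjusted p = 0.11). The Krt7 to Krt19 ratio of FPKM stayed between 0.961 and 1.27 over the 4 libraries.

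Krt23, a type I keratin of low level here, was at 7.62 and 5.40 FPKM in the WT pair and 2.23 and 1.57 FPKM in the KO-labelled pair. Its wild-type libraries were the closest of any luminal keratin, 0.43 apart in log2(FPKM + 1), and the groups did not overlap. The difference of -1.37 (SE 0.28) had the lowest p of the 10 and missed the threshold narrowly (limma, adjusted p = 0.052). It passed with a filter at 5 FPKM (limma, adjusted p = 0.042), as did 1634 of 7104 tested genes. With a plain prior it also passed (adjusted p = 0.047), as did 1830 of 11138 genes. Over the alternatives that kept all 4 libraries its adjusted p ran from 0.042 to 0.18. Krt80, a type II keratin of differentiating epithelia, did not separate the groups: it was at 3.44 and 1.72 FPKM in the WT pair and 1.73 and 2.35 FPKM in the KO-labelled pair (difference -0.20, 95% interval -1.16 to 0.76; limma, adjusted p = 0.70).

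Among the basal keratins, Krt14, the type I keratin of basal cells, was the most abundant, at 289 and 83.3 FPKM in the WT pair and 48.4 and 50.5 FPKM in the KO-labelled pair. It was the only 1 of the 4 whose groups did not overlap, with a difference of -1.63 (SE 0.66; limma, adjusted p = 0.16). Krt5, its type II partner, was at 25.0 and 7.87 FPKM in the WT pair and 8.06 and 8.84 FPKM in the KO-labelled pair. Here the second wild-type library was the lowest of the 4, and the difference of -0.69 (95% interval -2.34 to 0.97; adjusted p = 0.44) came to 0.089 without the first wild-type library.

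Krt17, a type I keratin of basal cells and of stressed or wounded epithelium, was at 165 and 22.2 FPKM in the WT pair and 13.8 and 24.7 FPKM in the KO-labelled pair. It varied by 1.79-fold within the pair labelled knockout, which bracketed the second wild-type library (difference -1.67, 95% interval -4.68 to 1.34; limma, adjusted p = 0.31). Krt15, a type I keratin of basal progenitors, was near the limit of the filter, at 2.79 and 0.572 FPKM in the WT pair and 1.38 and 1.87 FPKM in the KO-labelled pair. Its groups overlapped, and its difference of 0.098 (95% interval -1.31 to 1.501; adjusted p = 0.90) became 0.73 when the first wild-type library was left out and -0.54 when the second was. Krt14, Krt16 and Krt17 are close relatives in sequence, so reads may have been split between them.

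**Figure D2:**
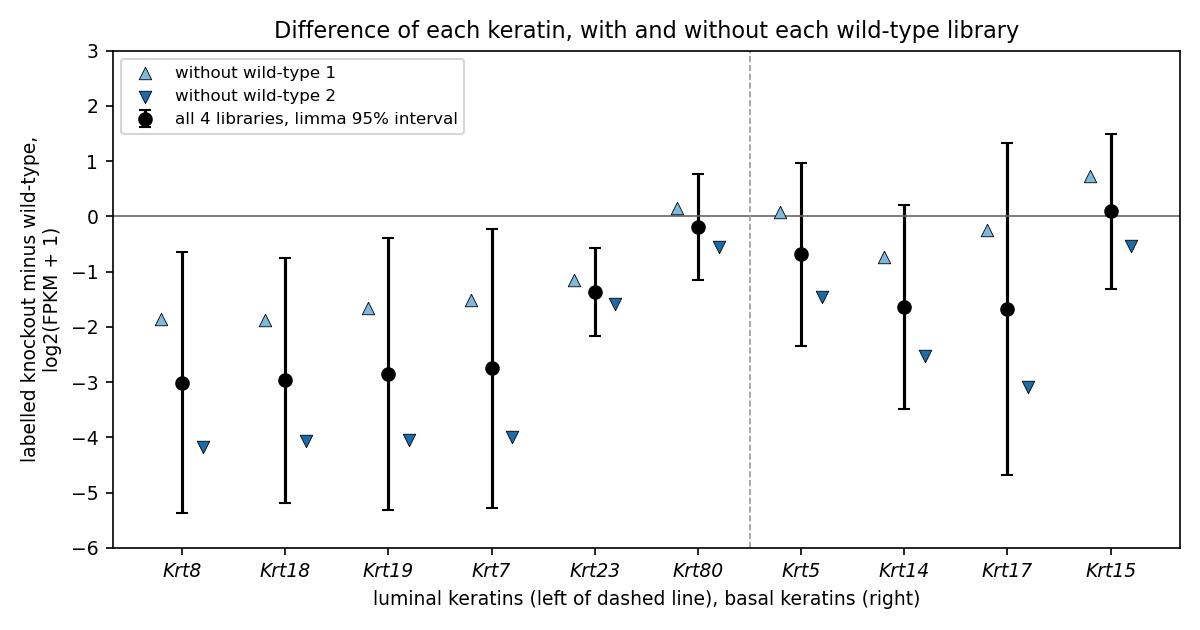
Difference of each keratin in log2(FPKM + 1), labelled knockout minus wild-type. Black points with bars are the fit of all 4 libraries with its 95% interval, and triangles leave out 1 wild-type library. Krt8 lies at -3.01 and moves to -1.85 or -4.17, and the points of Krt80, Krt5 and Krt15 fall on both sides of 0.

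As sets, the 6 luminal keratins had a median difference of -2.81 and the 4 basal keratins one of -1.16, versus 0.082 over all tested genes. Without the first wild-type library the medians were -1.59 and -0.082, and without the second -4.02 and -1.99. In these bulk samples fewer cells of a type and less RNA per cell cannot be told apart. The lymphocyte markers moved the other way in the same libraries: 12 of 13 measured genes rose, versus 9.51% of all tested genes, and their summed level was 18.3 and 81.7 FPKM in the WT pair and 2101 and 1998 FPKM in the KO-labelled pair. None of the 10 macrophage markers passed or had an unadjusted p under 0.05 (limma), versus 16.5% and 39.5% of all tested genes. Their summed level was 963 and 29352 FPKM in the WT pair and 1505 and 1473 FPKM in the KO-labelled pair, so the second wild-type library, lower in keratins than the first, was the highest in those. Cd3d, a T cell receptor chain, was at 2.02 and 3.45 FPKM in the WT pair and 208 and 204 FPKM in the KO-labelled pair, and C1qa, a complement gene of macrophages, at 40.5 and 1254 versus 34.3 and 37.3 FPKM. No defining marker of either list was at 0 in any library. Their part in the keratin levels was not tested.

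The balance of luminal to basal keratins also differed between the groups. The 10 keratins together made up 2.61 and 0.488% of all FPKM in the WT pair and 0.161 and 0.167% in the KO-labelled pair. Within that sum the basal keratins held 4.58 and 5.20% in the WT pair and 11.1 and 12.7% in the KO-labelled pair. The basal share was thus close between the wild-type libraries, whose keratin levels were far apart, and higher in both KO-labelled libraries. This share follows from the single levels: Krt8 and Krt18, most of the sum, were lower by more than any basal keratin. Any gene lower by less than Krt8 rises relative to it, and how many of all genes did so was not counted.

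The Krt8 to Krt14 ratio of FPKM was 16.1 and 11.1 in the WT pair and 5.27 and 5.14 in the KO-labelled pair. For Krt8 over Krt5 it was 186 and 118 versus 31.6 and 29.3. The ratios of Krt19 to Krt14 (1.78 and 1.17 versus 0.568 and 0.656) and of Krt7 to Krt14 (1.87 and 1.17 versus 0.721 and 0.630) were also lower in both KO-labelled libraries than in either wild-type library. Over all members, the mean log2(FPKM + 1) of the luminal minus that of the basal keratins was 2.45 ± 0.078 in the WT pair and 1.23 ± 0.20 in the KO-labelled pair (SD, n = 2 each), a difference of -1.22. Leaving out any 1 of the 4 libraries gave -1.36 to -1.08. This score rests on genes chosen with earlier results known and was given no test; with 2 libraries versus 2 an exact two-sided permutation test cannot go below 0.33.

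Within the basal pair the balance also differed. Krt5 stood at 0.0864 and 0.0945 of the Krt14 level in the WT pair and at 0.167 and 0.175 in the KO-labelled pair. Krt17 over Krt14 showed no such order, at 0.569 and 0.266 in the WT pair and 0.285 and 0.489 in the KO-labelled pair. Type II over type I keratins, summed, ran from 0.812 to 0.987 over the 4 libraries, lower in both KO-labelled libraries (0.862 and 0.812) than in wild-type (0.987 and 0.894).

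**Figure D3:**
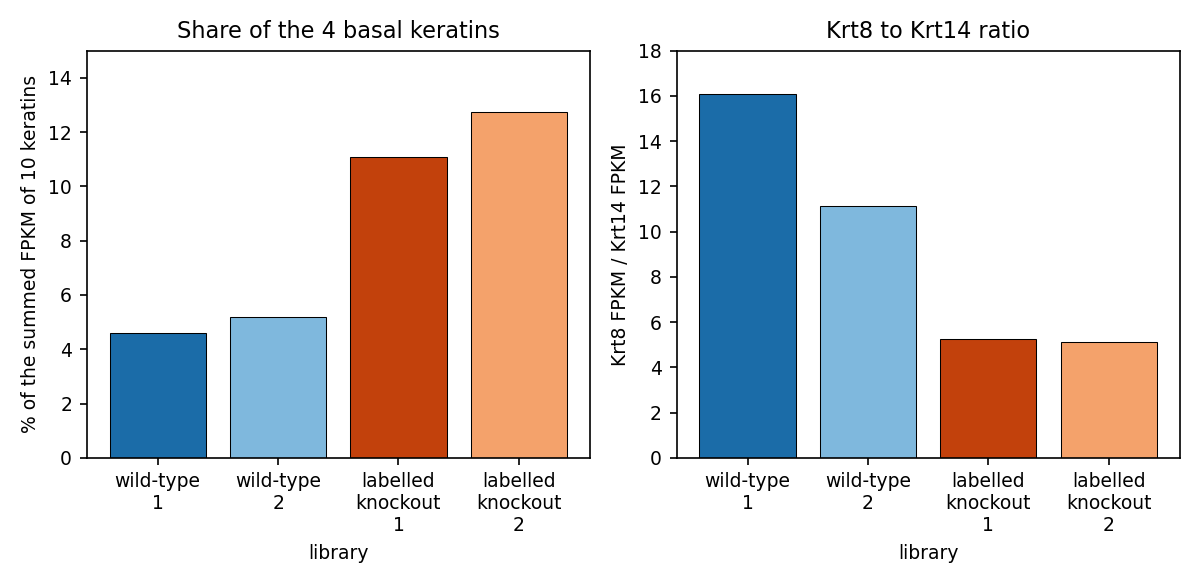
Left, the 4 basal keratins as a percentage of the summed FPKM of the 10 keratins in each library; right, the Krt8 to Krt14 ratio of FPKM. The basal share is 4.58 and 5.20% in the WT pair and 11.1 and 12.7% in the KO-labelled pair, and the ratio is 16.1 and 11.1 versus 5.27 and 5.14.

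Set beside Epcam, an adhesion protein of epithelial cells, 4 of the 10 keratins were higher in the KO-labelled pair, 4 overlapped, and Krt8 and Krt18 were lower. Epcam was at 1351 and 385 FPKM in the WT pair and 116 and 117 FPKM in the KO-labelled pair (difference -2.62, SE 0.66; limma, adjusted p = 0.071), so it was ordered over the libraries like Krt8. Per 100 FPKM of Epcam, Krt8 was at 344 and 241 FPKM in the WT pair and 219 and 221 FPKM in the KO-labelled pair. Krt18 was at 319 and 246 versus 218 and 222 on that scale. Krt19 (38.2 and 25.4 versus 23.6 and 28.2) and Krt7 (40.1 and 25.3 versus 30.0 and 27.1) overlapped between the groups. Of the 4 abundant luminal keratins, Krt8 and Krt18 were thus lower in both KO-labelled libraries after scaling to Epcam, versus 1.67% of tested genes. The margin to the second wild-type library was small. Cldn7, a claudin gene, was also lower on that scale (38.8 and 27.6 versus 20.2 and 23.1), while Cdh1 overlapped (9.31 and 5.26 versus 6.86 and 8.26). This order rests on Epcam as the divisor, and other single epithelial genes were not used.

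Of the 4 basal keratins, 3 were higher per 100 FPKM of Epcam in both KO-labelled libraries than in either wild-type library, as were 84.6% of tested genes. Dividing by Epcam, which was itself lower there, raises every gene that was lower by less, so this count is no result about basal keratins. Krt14 was at 21.4 and 21.7 FPKM in the WT pair and 41.6 and 43.1 FPKM in the KO-labelled pair on that scale. Krt5 was at 1.85 and 2.05 versus 6.92 and 7.54. Krt15 was at 0.207 and 0.149 versus 1.19 and 1.59, and the luminal Krt80 at 0.255 and 0.446 versus 1.49 and 2.00. In these 4 genes the groups did not overlap, whereas Krt17 (12.2 and 5.77 versus 11.8 and 21.1) and Krt23 (0.564 and 1.40 versus 1.91 and 1.34) overlapped. Trp63, the transcription factor p63 of basal cells, was at 0.536 and 0.261 versus 0.308 and 0.641 per 100 FPKM of Epcam, with no separation.

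**Figure D4:**
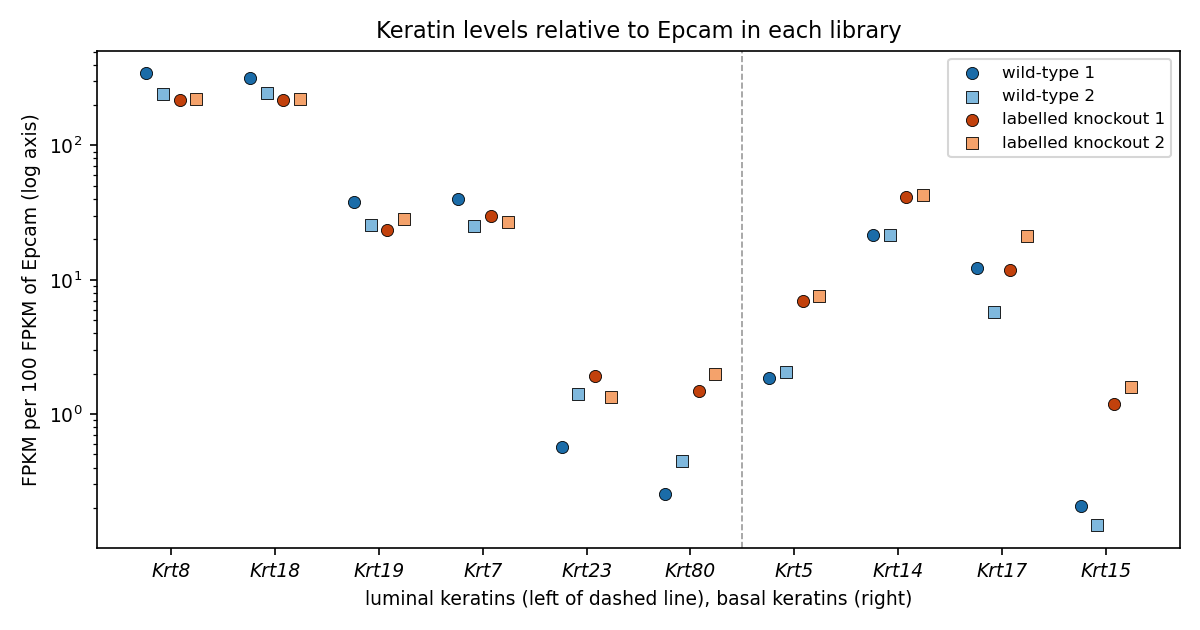
FPKM of each keratin per 100 FPKM of Epcam in the same library, on a log axis, 1 point per library. Krt14 is at 21.4 and 21.7 in the WT pair and 41.6 and 43.1 in the KO-labelled pair, while Krt19 and Krt7 overlap between the groups.

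Against the 8 pan-epithelial genes as a set, the mean log2(FPKM + 1) of the luminal keratins lay 1.28 ± 0.036 above in the WT pair and 1.61 ± 0.0068 above in the KO-labelled pair (SD, n = 2 each), a difference of 0.33. With a pseudocount of 5 the difference was 0.046, and with 0.1 it was 0.59. The positive sign rests on Krt23 and Krt80, which had low levels and differences of -1.37 and -0.20. The abundant Krt8, Krt18, Krt19 and Krt7 had differences of -3.01, -2.97, -2.86 and -2.75, each below the pan-epithelial median of -2.51. On the same scale the basal keratins stood at -1.17 ± 0.042 relative to that set in the WT pair and at 0.38 ± 0.19 in the KO-labelled pair, a difference of 1.55. All 8 pan-epithelial genes were lower in both KO-labelled libraries than in either wild-type library, versus 32.1% of tested genes, with a median difference of -2.51. Of these, Cldn3, a claudin of tight junctions, fell by 3.30 (SE 0.51; limma, adjusted p = 0.036) and 7 did not pass, versus 6.99% called lower among all tested genes. Cdh1, the gene of E-cadherin, was at 126 and 20.2 FPKM in the WT pair and 7.98 and 9.68 FPKM in the KO-labelled pair (adjusted p = 0.15).

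Keratin filaments are anchored at desmosomes and hemidesmosomes by linker proteins. Of 19 genes of filament partners 10 passed the filter on low values. Of these 1 fell, none rose and 9 did not pass, close to the 6.99% called lower and 9.51% called higher among all tested genes. Their median difference was -1.58. Both KO-labelled libraries lay below both wild-type libraries for 7 of the 10, versus 32.1% of tested genes. They lay above both for 2, versus 39.3%. Dst, a linker of keratins to hemidesmosomes, fell by 1.43 (SE 0.21; limma, adjusted p = 0.033), from 3.10 and 2.36 FPKM to 0.449 and 0.304 FPKM, a call that ended with the replicate number as a block (adjusted p = 0.057). Jup, the desmosomal linker plakoglobin, was at 64.2 and 21.9 FPKM in the WT pair and 6.75 and 6.18 FPKM in the KO-labelled pair (adjusted p = 0.066). Its level per 100 FPKM of Krt8 was 1.38 and 2.36 in the WT pair and 2.65 and 2.38 in the KO-labelled pair. Itgb4, the integrin of hemidesmosomes, was at 0.335 and 0.337 versus 0.422 and 0.432 per 100 FPKM of Krt8. Krt8 was itself lower in the KO-labelled pair, so dividing by it raises any gene that was lower by less. These ratios are therefore no result about Jup or Itgb4. Pnn, a desmosome-associated and nuclear protein, was higher, at 14.2 and 14.2 FPKM versus 24.5 and 29.4 FPKM (adjusted p = 0.060), and Fam83h, a regulator of keratin filament organisation, was at 23.3 and 4.04 versus 1.42 and 1.15 FPKM (adjusted p = 0.14).

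Genes of the luminal and basal lineages that are not keratins mostly did not pass. Of 15 luminal lineage genes 11 were tested, 1 fell and 10 did not pass, near the 6.99% of all tested genes called lower, with a median difference of -1.13. For 7 of the 11 both KO-labelled libraries lay below both wild-type libraries, versus 32.1% of tested genes. For 1 they lay above both, versus 39.3%. Prlr, the prolactin receptor, fell by 1.83 (SE 0.27; limma, adjusted p = 0.034), a call that ended with the replicate block (adjusted p = 0.057). Gata3, a transcription factor of luminal cells that T cells also express, was at 18.8 and 4.48 FPKM in the WT pair and 11.3 and 9.45 FPKM in the KO-labelled pair, and so did not follow Krt8. Elf5, a factor of alveolar luminal cells, was at 14.7 and 5.65 versus 0.895 and 0.990 FPKM (adjusted p = 0.051), and Ehf, an epithelial ETS factor, at 25.0 and 10.1 versus 2.59 and 2.39 FPKM (adjusted p = 0.054).

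Of 14 basal lineage genes 9 were tested, 3 fell and 6 did not pass, versus 6.99% of all tested genes called lower. All 9 were lower in both KO-labelled libraries than in either wild-type library, versus 32.1% of tested genes. Their median difference was -1.45, and that of the luminal lineage genes -1.13. The luminal list includes Cd14 (195 and 1112 versus 426 and 387 FPKM), highest in the second wild-type library like the macrophage markers. It also includes Gata3 and Ly6a (36.5 and 76.3 versus 111 and 118 FPKM), the latter higher in the KO-labelled pair like the lymphocyte markers. The order of these 2 medians therefore depends on the genes listed and is not set against that of the keratins (-1.16 for basal, -2.81 for luminal). Procr, the protein C receptor, fell by 1.55 (SE 0.26; limma, adjusted p = 0.040), Acta2, smooth muscle actin, fell by 1.45 (SE 0.25; adjusted p = 0.040) and Igfbp5, an IGF-binding protein, fell by 2.59 (SE 0.46; adjusted p = 0.041). With the replicate block all 3 calls ended (adjusted p = 0.060, 0.070 and 0.051), and that of Igfbp5 also ended (0.0504) once library totals were made equal. Acta2 had similar levels in the wild-type libraries (13.9 and 15.1 FPKM, versus 3.89 and 5.52 FPKM), unlike Krt14 and Krt5. Trp63 was at 7.24 and 1.01 FPKM in the WT pair and 0.359 and 0.751 FPKM in the KO-labelled pair (adjusted p = 0.25), and Snai2 at 7.05 and 4.29 versus 1.34 and 0.623 FPKM (adjusted p = 0.051).

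Outside the 10 genes the table held 42 keratin rows, and 9 of them passed the filter on low values. Of these 4 rose, versus 9.51% of all tested genes, none fell and 5 did not pass. The 4 are keratins of the hair follicle and were at or near 0 in wild-type: Krt73 was at 0.0194 FPKM and listed at 0 in the WT pair and at 4.89 and 5.07 FPKM in the KO-labelled pair (limma, adjusted p = 0.024). Krt28, with a listed 0 in both wild-type libraries, was at 2.88 and 3.49 FPKM (adjusted p = 0.024). Krt27, also listed at 0 in both, was at 2.16 and 1.32 FPKM (adjusted p = 0.034), and Krt35 went from a listed 0 and 0.210 FPKM to 1.24 and 1.02 FPKM (adjusted p = 0.042). Such genes passed the filter only through the group in which they were higher. With the replicate block the calls of Krt27 (adjusted p = 0.051) and Krt35 (0.073) ended, and that of Krt35 also with a pseudocount of 0.1 (0.074) and a plain prior (0.058).

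In all, 23 of the 42 rows had a listed 0 in both wild-type libraries, and 13 of those were above 0 in both KO-labelled libraries, versus 6.59% of all 7888 rows listed at 0 in both wild-type libraries. The count includes very low values: Krt39 was at 0.101 and 0.0312 FPKM, and Krt82 at 0.149 and 1.74e-10 FPKM, the latter 0 in practice. Of the 13, only Krt28 and Krt27 were above 1 FPKM in both KO-labelled libraries. Of the 8 rows at 0 in both KO-labelled libraries, 1 was above 0 in both wild-type libraries, versus 2.40% of all 7494 such rows. Of the epidermal keratins, Krt2 was listed at 0 in all 4 libraries, and Krt1 was at 0 in the WT pair and at 0.0186 and 0.657 FPKM in the KO-labelled pair, 1 of those 13. Other epidermal genes went both ways at low levels: Ivl, the cornified envelope protein involucrin, was at 0 in the WT pair and at 0.389 and 0.248 FPKM in the KO-labelled pair, Dsg1a, a desmosomal cadherin, at 0 versus 0.077 and 0.031 FPKM, and Lor, the envelope protein loricrin, at 0.336 and 0.608 versus 0.053 and 0.074 FPKM. The lymphocyte markers were higher in the same libraries, and their part in the follicle keratin levels was not tested.

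The rest of the tested rows were keratins of stratified or stressed epithelium and did not pass. Krt16, a type I keratin of stressed epithelium, was at 31.9 and 4.18 FPKM in the WT pair and 9.15 and 7.94 FPKM in the KO-labelled pair. Krt79, a type II keratin of skin glands, was at 6.19 and 3.33 versus 5.23 and 4.63 FPKM, and Krt10, the type I keratin of epidermis, at 2.60 and 1.59 versus 1.93 and 3.20 FPKM. Krt6a, a type II partner of Krt16, was at 3.78 and 1.34 versus 4.04 and 5.42 FPKM; its near copy Krt6b shares reads with it, so both values are uncertain. The groups of Krt16, Krt79 and Krt10 overlapped, and those of Krt6a and Krt6b did not.

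**Figure D5:**
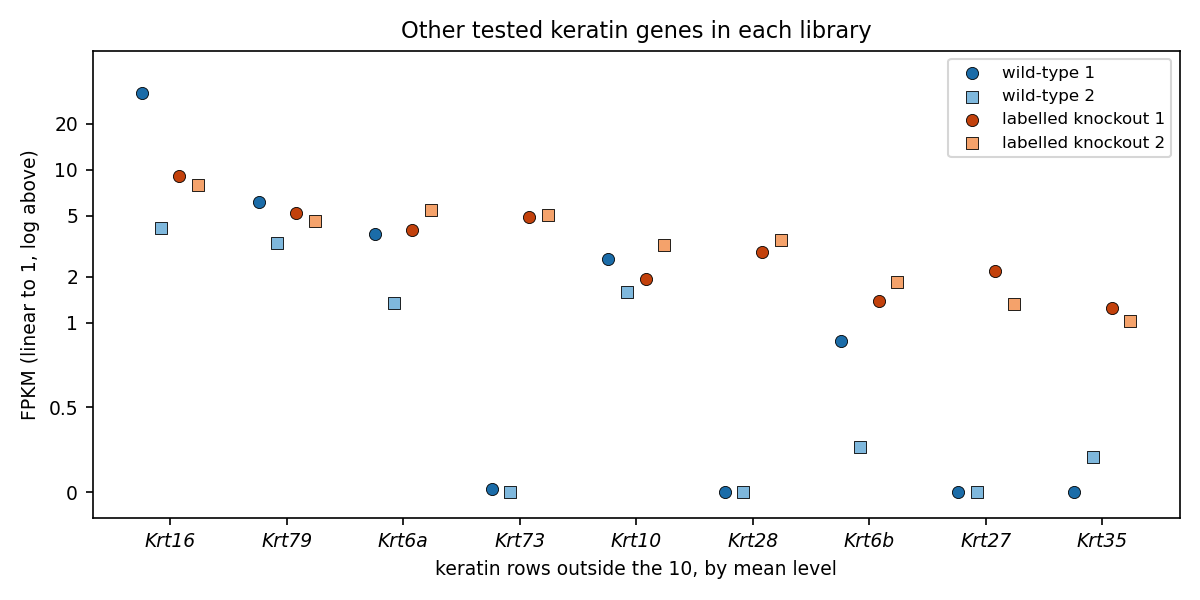
FPKM of the 9 tested keratin rows outside the 10, ordered by mean level, 1 point per library, on an axis that is linear up to 1 and logarithmic above. Krt73, Krt28 and Krt27 lie at or near 0 in the WT pair and between 1.32 and 5.07 FPKM in the KO-labelled pair.

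Genes with profiles most like those of Krt8 and Krt14 were found among 6578 other named genes with a mean of at least 5 FPKM, by the root mean square distance between centred log2(FPKM + 1) values over the 4 libraries. For Krt8 they were Plb1, a phospholipase (distance 0.039), Trf, the iron carrier transferrin (0.049), Krt18 (0.054), Prom1, a membrane protein of luminal progenitors (0.074), and Lcn2, the iron-siderophore carrier lipocalin 2 (0.083). Trf was at 6009 and 1144 FPKM in the WT pair and 327 and 308 FPKM in the KO-labelled pair, and Lcn2 at 5899 and 1166 versus 369 and 352 FPKM. Plb1 was at 34.4 and 5.61 FPKM in the WT pair and 0.90 and 0.98 FPKM in the KO-labelled pair. Prom1 was at 27.1 and 4.09 versus 0.48 and 0.64 FPKM. Relative to wild-type, both were lower in the KO-labelled pair than Krt8 was, at levels under the pseudocount of 1. Their small distances to Krt8 therefore rest on the pseudocount. For Krt14 they were Nckap1, a subunit of the WAVE actin regulator (0.036), Eya2 (0.063), Rab34 (0.078), Cd24a, a surface marker of epithelium that B cells also carry (0.090), and Fdx1, a mitochondrial electron carrier (0.093). Cd24a was at 204 and 51.4 FPKM in the WT pair and 30.6 and 29.6 FPKM in the KO-labelled pair. With 4 libraries many genes can share such an order, so likeness here is a description.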

How the data were processed

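RNA-seq libraries of YFP+ sorted tumor cells were made with a low-input Clontech SMARTer v4 mRNA kit, per the labels' protocols. Groups were taken from the sample titles. Build mm9 is named in the submitters' processing notes; the sources used here name no aligner, quantifier or annotation. The deposited table gives 1 value per gene and library, read as FPKM from its values because the header names no unit. FPKM depends on transcript length and on what else fills a library. Of 24043 rows 92 spike-in rows were left out and 27 carry dates in place of symbols. The 11138 genes that reached 1 FPKM in 2 or more libraries, all 10 keratins included, entered a limma fit of log2(FPKM + 1). The fit (version 3.58.1, R 4.3.3) had a trended, robust prior, genotype as sole term and Benjamini-Hochberg adjustment at 0.05. It was also run on simulated data with independent noise and no filter on low values. That noise had the typical spread of genes of like level, so the wide wild-type spread of most keratins was not covered. Log2 differences understate changes near the pseudocount of 1. Relative depth came from the commonest ratio between libraries among values below 0.1 FPKM. The 10 keratins and all lists were chosen with earlier results of these data known. Named genes were the members, Kdm1a, up to 4 genes of lowest p in the lists described, and defining markers. The 6 other keratins of highest mean and the 5 nearest profiles to Krt8 and Krt14 were also named. Gata3, Cd14, Ly6a, Itgb4, Krt27, Krt35, Krt6b, Krt1, Krt2, Ivl, Dsg1a, Lor and Lmnb2 were chosen after their values were seen. The macrophage and lymphocyte lists had 1 symbol each without a row, and Emr1 stood for Adgre1. Neutrophil (3 of 8 rose), endothelial (0 of 5 passed, 3 at an unadjusted p under 0.05) and fibroblast (0 of 7, 2 unadjusted) lists, and a skin list (1 of 2 tested genes rose), were also read with limma. Over all tested genes 9.51% rose, 16.5% passed in either direction and 39.5% had an unadjusted p under 0.05.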

Additional observations from a re-analysis of the deposited data

How the results depend on the processing

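Of 88 member differences recomputed with all 4 libraries, 86 kept their direction and side of the threshold and none reversed. Krt23 passed with a filter at 5 FPKM (difference -1.37, adjusted p = 0.042) and with a plain prior (adjusted p = 0.047), which gave 1 member past the threshold in each. Leaving out single libraries gave 0 to 9 members past the threshold (7 without the first wild-type library, 9 without the second, 0 without either labelled knockout), since the remaining wild-type library has no spread of its own. Differences that changed sign there were those of Krt80 (-0.56 to 0.16), Krt5 (-1.46 to 0.089) and Krt15 (-0.54 to 0.73). The luminal median ran from -4.02 to -1.59 and the basal median from -1.99 to -0.082. The luminal to basal difference was -1.45 from summed Krt8 and Krt18 over Krt5 and Krt14, and -1.36 to -1.08 with single libraries left out. Luminal keratins relative to pan-epithelial genes gave 0.59 with a pseudocount of 0.1, 0.046 with 5, 0.42 versus Epcam alone and 0.31 to 0.36 with single libraries left out. The positive sign of the main score rested on Krt23 and Krt80, at low levels. Of the other keratin rows 4 passed, 0 with no filter or a filter at 5 FPKM, and 0 to 8 with single libraries left out (the 4 failed the filter without either KO-labelled library). With the replicate number as a block (replicate block) 2 of them, 0 members and 501 of 11138 genes passed in place of 1837. Same-numbered deviations had a correlation of -0.062 across genes. With a single deviation per pair this cannot tell whether same-numbered libraries were handled together, and the sample titles give only a number. Krt15 and the follicle keratins lie at a few FPKM or less, where single reads weigh more.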

Other observations

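Among the other intermediate filament genes, Lmna, the gene of lamins A and C of the nuclear envelope, fell from 576 and 344 FPKM in wild-type to 97.4 and 110 FPKM in the KO-labelled pair (difference -2.09, SE 0.30; limma, adjusted p = 0.034). Nes, the filament gene nestin, was lower without passing, at 6.82 and 1.71 FPKM versus 0.148 and 0.151 FPKM (adjusted p = 0.088). The B-type lamins were higher without passing: Lmnb1 was at 3.75 and 6.51 FPKM versus 11.0 and 10.8 FPKM (adjusted p = 0.10) and Lmnb2 at 1.26 and 2.39 versus 3.13 and 5.93 FPKM (adjusted p = 0.17). Nefh, a neurofilament gene, rose from 0.080 FPKM and a listed 0 to 2.17 and 2.40 FPKM (adjusted p = 0.024); it passed the filter on low values only through the group in which it was higher. Vim, the filament gene of mesenchymal and blood cells, did not separate the groups, at 39.8 and 280 FPKM in the WT pair and 108 and 104 FPKM in the KO-labelled pair (adjusted p = 0.997). Its highest level was in the second wild-type library, as was that of the macrophage marker C1qa. The calls of Lmna and Nefh ended with no filter on low values (adjusted p = 0.15 and 0.13), and that of Lmna also without either KO-labelled library (0.45 and 0.46), where Nefh failed the filter and was not tested. Lymphocyte markers were higher in the same libraries, and their part in these levels was not tested.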
